A study of Mus musculus with 9 samples.

Results

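STAT, SOCS/CIS and PIM genes take part in the response of T cells to cytokines. The set described here was taken by name as 4 STAT genes (Stat3, Stat5a, Stat5b and Stat6), 4 genes of the SOCS/CIS family (Socs1, Socs2, Socs3 and Cish) and 2 PIM kinase genes (Pim1 and Pim2). These are 10 of 55487 gene IDs, and 9 of them were among the 13374 genes with enough counts to test. Socs2 was not. Poly(A) RNA was measured in naive CD4+ T cells from the spleen of wild-type (WT) C57BL6/J mice, in 9 libraries. Of these, 3 came from mice given anti-IL-1b, a neutralizing antibody against the inflammatory cytokine IL-1b, in vivo on 10 consecutive days. Another 3 came from mice given MCC950, an inhibitor of the inflammasome sensor NLRP3, for the same time, and 3 came from untreated mice. All mice shared the genotype and strain. The labels give no dose, age, sort gate, control antibody or vehicle group. They also do not tie any library to a mouse. The p-values therefore reflect the spread between libraries alone, and that spread may be technical.

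A cytokine bound to its receptor activates Janus kinases (JAKs), which phosphorylate STAT proteins. Phosphorylated STATs pair, enter the nucleus and bind a DNA palindrome at their target genes. Socs1, Socs3 and Cish are such targets, and their proteins act back on the receptors and JAKs. Pim1 and Pim2 are targets as well and encode serine/threonine kinases that favour survival and growth. In naive T cells this machinery is kept at work by IL-7, which signals mainly through STAT5, and it also serves IL-4 through STAT6 and IL-6 through STAT3.

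Promoter sequence is shown for the members whose promoter, in the RefSeq table of the GRCm38.p6 build, held the STAT palindrome TTCNNNGAA, and for Socs1. The table had 12 promoters for 9 members, each with 250 bases before the start and 50 bases after it, read on both strands. The palindrome was present in 8.30% of 32851 promoters of that length and in 2 or more copies in 0.457%. Of the members, Cish and Socs3 held it. The Cish stretch, chr9:107296409-107296688 on the plus strand, has 2 copies, in capitals, at bases 1 to 9 and 12 to 20 after the start. The Socs3 stretch, chr11:117969337-117969616 on the minus strand, has 1 copy, in capitals, at 154 to 146 bases before the start. This start lies inside the Socs3 gene as GENCODE draws it, and the stretch spans an exon of a noncoding Socs3 transcript. The bases after this start matched no GENCODE Socs3 transcript in an unbroken run, so this check does not back it as a start. The check compared no transcript starts, and a first exon shorter than the 50 bases would also fail it. The Socs1 stretch, chr16:10785507-10785786 on the minus strand, has no palindrome. It holds 2 overlapping copies of the interferon regulatory factor element, searched as GAAA, any 2 bases and GAAA, in capitals, at bases -83 to -74 and -77 to -68. That element was chosen after these bases had been seen, and it occurs in 3.44% of the 32851 promoters and in 2 or more copies in 0.225%. No match to either motif was present in the promoters of the other 6 genes in the table, which says only that these letters are not in those windows. Each stretch is printed 5′ to 3′ with 250 bases before and 30 bases after the start.
Cish: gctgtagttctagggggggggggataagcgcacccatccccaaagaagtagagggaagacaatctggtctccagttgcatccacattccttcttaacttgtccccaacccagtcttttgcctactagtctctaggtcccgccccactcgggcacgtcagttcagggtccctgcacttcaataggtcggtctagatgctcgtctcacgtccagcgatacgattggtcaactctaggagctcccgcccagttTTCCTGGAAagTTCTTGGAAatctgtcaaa
Socs3: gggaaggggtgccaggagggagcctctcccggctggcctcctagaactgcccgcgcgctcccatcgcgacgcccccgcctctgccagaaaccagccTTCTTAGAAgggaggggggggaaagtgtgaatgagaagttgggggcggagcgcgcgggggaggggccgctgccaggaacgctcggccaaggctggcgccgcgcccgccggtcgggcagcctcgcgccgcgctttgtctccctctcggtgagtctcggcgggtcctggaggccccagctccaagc
Socs1: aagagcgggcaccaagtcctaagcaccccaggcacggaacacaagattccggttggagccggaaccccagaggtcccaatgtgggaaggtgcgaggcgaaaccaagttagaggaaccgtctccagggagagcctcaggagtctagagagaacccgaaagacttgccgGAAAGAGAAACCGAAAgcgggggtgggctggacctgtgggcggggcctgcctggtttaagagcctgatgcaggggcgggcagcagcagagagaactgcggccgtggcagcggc

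Levels are given as CPM, the counts of a gene relative to the TMM-scaled total of its library. Comparisons between genes use TPM, which also takes transcript length into account. In anti-IL-1b libraries Stat6 led the 10 genes with 164 ± 4.13 TPM (SD, n = 3), before Stat3 with 144 ± 15 and Socs3 with 113 ± 7.76, and Pim1 was the fourth with 97.9 ± 5.61, overlapping Stat5b at 92.4 ± 4.83. In MCC950 libraries Stat6 led with 147 ± 5.56 TPM, before Stat3 with 124 ± 9.46 and Socs3 with 101 ± 2.79, and Pim1 was the fifth with 81.3 ± 5.04, overlapping Stat5b at 82.3 ± 3.76. The order differed in untreated cells, where Pim1 led with 185 ± 6.78 TPM. There Stat3 at 157 ± 18.9, Stat6 at 150.3 ± 2.25 and Socs3 at 147 ± 8.37 TPM came next, with overlapping ranges. Stat5b at 81.6 ± 4.47, Pim2 at 51.0 ± 3.76, Stat5a at 40.8 ± 0.888, Socs1 at 20.1 ± 1.53, Cish at 8.28 ± 1.36 and Socs2 at 0.430 ± 0.489 TPM followed in untreated cells, each apart from its neighbours. The lower places, from Pim2 down to Socs2, were filled in the same order in all 3 groups, although Socs1 and Cish overlapped with MCC950. In bulk RNA of this kind, fewer cells of a type and less RNA per cell cannot be told apart.

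**Figure D1:**
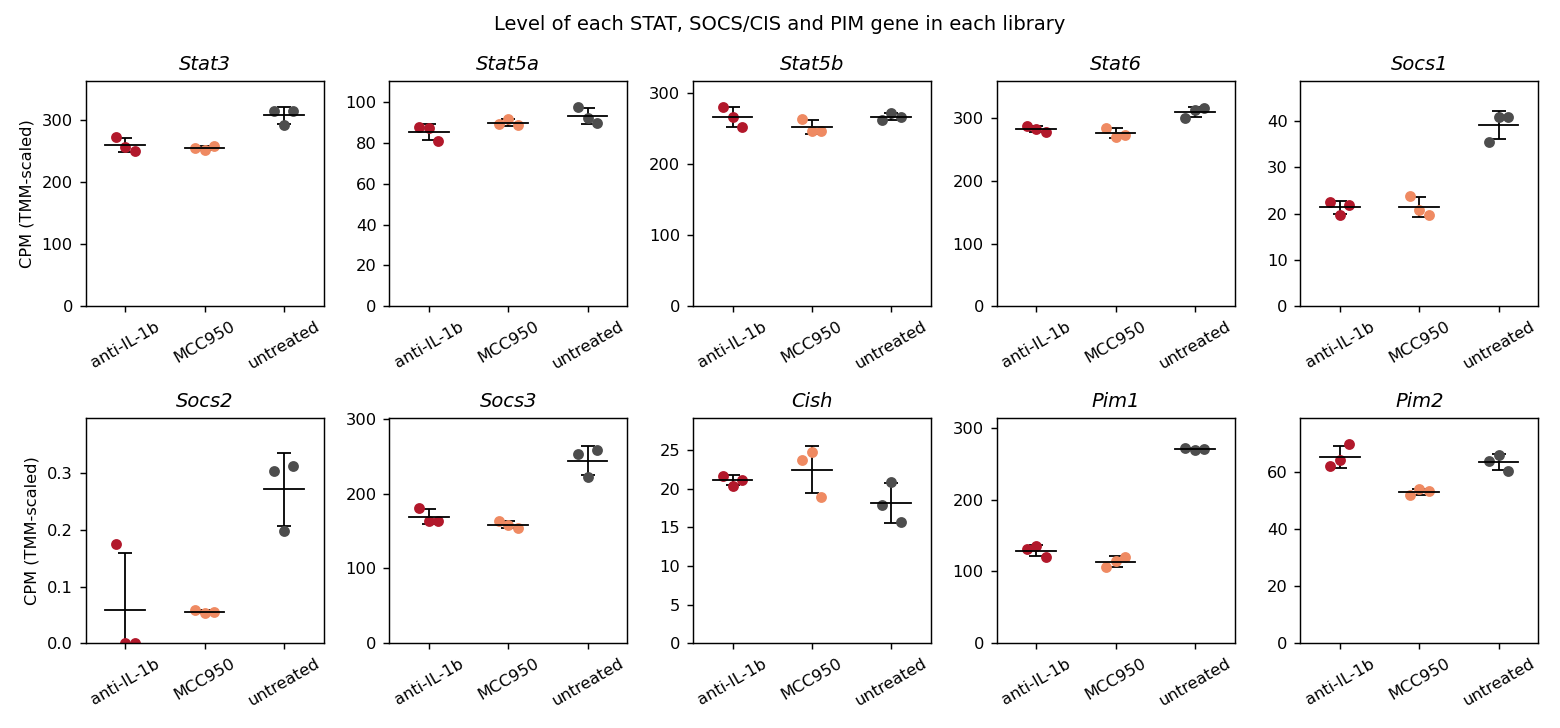
CPM (TMM-scaled, linear axes from 0) of the 10 genes in each of the 9 libraries, with 1 point per library, a bar at the group mean and an error bar of 1 SD (n = 3). Pim1, Socs1 and Socs3 lie lower in both treated groups than in any untreated library, while Stat5b and Cish overlap between groups. Of all tested genes, 22.8% lay below the untreated range with anti-IL-1b and 23.8% with MCC950.

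With anti-IL-1b, 5 of the 9 tested genes were lower than in untreated cells and 0 were higher: Pim1, Socs1, Socs3, Stat3 and Stat6. Among all genes 34.0% passed the same test, 18.5% as lower and 15.4% as higher. The median log2 fold change of the 9 genes was -0.13, against 0.00 over all tested genes. With MCC950, 6 genes were lower, the same 5 and Pim2, and Cish was higher. Among all genes 36.8% passed in that comparison, 19.1% as lower and 17.7% as higher, and the medians were -0.26 for the 9 genes and 0.01 over all. Scaling to library totals alone put the median of all genes at 0.13 with anti-IL-1b and at 0.12 with MCC950. Then 3 of the genes (Stat5b, Cish and Pim2) were higher and 4 lower with anti-IL-1b, and 1 was higher and 4 lower with MCC950. Of all 13374 genes, 3929 were higher and 1344 lower with anti-IL-1b under that scaling, and 4009 higher and 1587 lower with MCC950. On log2(TPM + 1), the scale of the TPM tests below, the median of all genes was 0.14 with anti-IL-1b and 0.09 with MCC950. The test throughout was the quasi-likelihood test of edgeR at a threshold of 0.05, with Benjamini-Hochberg adjustment across 13374 genes. Both comparisons use the same 3 untreated libraries, so they are not independent of each other.

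Other properties of the libraries moved with the same groups. All 15 genes of a list of handling and immediate early genes (Fos, Jun, Egr1, heat shock genes and the like, which rise when cells are handled or stimulated) were lower with both agents, with median log2 fold changes of -2.34 and -2.27. Their summed level was 5460.0 to 5621 CPM with anti-IL-1b and 6311 to 6454 with MCC950, against 21163 to 21589 CPM in untreated libraries. The 12 markers of activated, memory and regulatory T cells summed to 133 to 147 CPM with anti-IL-1b and 131 to 136 with MCC950, against 496 to 522 CPM in untreated libraries, with 1 higher and 2 lower calls with anti-IL-1b and 3 and 3 with MCC950. Their median log2 fold changes were 0.02 and 0.20, and most of the difference in the sum lay in Cd69, an early activation gene, at 64.0 ± 3.64 CPM with anti-IL-1b and 56.0 ± 3.98 with MCC950, against 395 ± 13.9 CPM in untreated cells. Ctla4, an inhibitory receptor gene, was at 3.08 ± 0.964 and 3.11 ± 1.08 CPM, against 43.9 ± 1.83 CPM in untreated cells. The part of either in the lower values of the STAT, SOCS/CIS and PIM genes was not tested.

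The 10 naive CD4 T cell markers were all present, at summed levels of 7078 to 7118 CPM with anti-IL-1b and 6611 to 6628 with MCC950, against 7121 to 7215 CPM in untreated libraries. Of these, 3 were higher and 2 lower with anti-IL-1b and 3 were higher and 4 lower with MCC950. Ccr7, a homing receptor gene of naive T cells, was among the lower ones, at 462 ± 6.92 CPM with anti-IL-1b and 444 ± 3.70 with MCC950, against 652 ± 12.4 CPM in untreated cells. B cell markers summed to 98.5 to 107 CPM with anti-IL-1b and 108 to 130 with MCC950, against 19.7 to 26.9 CPM in untreated libraries, and all 12 were higher with both agents. Neutrophil markers summed to 28.5 to 29.8 and 13.5 to 16.6 CPM, against 1.16 to 1.34 CPM in untreated libraries, where S100a8, Ly6g, Retnlg, Camp, Mpo and Elane were at 0; of 12 genes 7 were tested, and 7 were higher with anti-IL-1b and 6 with MCC950. Markers of CD8 T and NK cells summed to 96.4 to 106 and 99.3 to 105 CPM, against 66.4 to 73.8 CPM, with Klrb1c and Ncr1 at 0 in untreated libraries; of 10 genes 7 were tested, with 4 higher and 1 lower with anti-IL-1b and 3 higher with MCC950, and median log2 fold changes of 1.07 and 0.89. Cd8a, the CD8 co-receptor gene, was at 19.4 ± 2.69 CPM with anti-IL-1b and 19.7 ± 1.07 with MCC950, against 0.970 ± 0.270 CPM in untreated cells. Prf1, at 36.9 ± 3.39 and 42.5 ± 0.850 CPM, against 45.9 ± 2.29 CPM in untreated cells, made up most of the untreated sum. Markers of monocytes, macrophages and dendritic cells summed to 14.8 to 17.6 and 14.3 to 16.7 CPM, against 3.87 to 5.97 CPM, with Vcam1 and Cd209a at 0 in untreated libraries; of 12 genes 7 were tested, with 5 higher and 1 lower with anti-IL-1b and 4 higher with MCC950. Red cell markers summed to 4.38 to 5.0 and 6.13 to 10.3 CPM, against 0.122 to 0.445 CPM, with Hba-a1, Hbb-bs, Hbb-bt and Slc4a1 at 0 in untreated libraries; the 4 of 7 genes that were tested were higher with both agents. The part of these other cells in the values of the STAT, SOCS/CIS and PIM genes was not tested. Neutrophil and red cell markers such as S100a8 and Hbb-bs, at 0 in untreated libraries, passed the count filter through the treated groups alone. So did B cell markers such as Ebf1 and Blk, at 0.295 ± 0.150 and 0.299 ± 0.127 CPM in untreated libraries. For such genes a call as higher was largely fixed by the filter. Total expected counts ran from 14775375 to 16676626 in anti-IL-1b, from 16769960 to 18497827 in MCC950 and from 17335367 to 21394797 in untreated libraries.

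Among the STAT genes, Stat3, whose protein is the main transducer of IL-6 family and IL-10 signals, fell in both treated groups. Stat3 (chromosome 11, 100885098 to 100939540) had 273, 257 and 250.4 CPM in anti-IL-1b libraries and 255, 252 and 259 CPM in MCC950 libraries, against 315, 293 and 316 CPM in untreated libraries. All 6 treated libraries lay below all 3 untreated ones. Of all tested genes, 22.8% lay below the untreated range with anti-IL-1b and 23.8% with MCC950. The log2 fold change was -0.24 ± 0.04 (SE) with anti-IL-1b (adjusted p = 8.80e-07) and -0.27 ± 0.04 with MCC950 (adjusted p = 9.27e-08). The mean length of its transcripts, weighted by abundance, ran from 2565 to 3416 bases over the 9 libraries. On log2(TPM + 1) the change with anti-IL-1b was -0.12 (adjusted p = 0.413, limma), against a median of 0.14 over all tested genes on that scale. Stat3 and Stat5a overlap by 72 bases on opposite strands.

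Stat6, the transducer of IL-4 and IL-13, moved less. It had 287, 282 and 277 CPM with anti-IL-1b and 284, 269.8 and 273 CPM with MCC950, against 299.7, 313 and 315 CPM in untreated libraries. The groups did not overlap, which also held for 22.8% of all tested genes, as lower, with anti-IL-1b and for 23.8% with MCC950. Its log2 fold change was -0.13 ± 0.03 with anti-IL-1b (adjusted p = 0.0017) and -0.17 ± 0.03 with MCC950 (adjusted p = 9.69e-05). The direction with anti-IL-1b was not the same on every scale: in TPM Stat6 stood at 164 ± 4.13 with anti-IL-1b against 150.3 ± 2.25 in untreated cells, a log2 difference of 0.12 with an adjusted p of 0.0531 by limma. In TPM the change with MCC950 was -0.03 (adjusted p = 0.641, limma). The median of all tested genes on log2(TPM + 1) was 0.14 with anti-IL-1b and 0.09 with MCC950. With upper-quartile scaling the change with anti-IL-1b was -0.08 (adjusted p = 0.0517). With scaling to library totals alone neither change of Stat6 passed (adjusted p = 0.899 and 0.198). Relative to the shift of all genes under that scaling it was lower in both.

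The paired STAT5 genes, whose near-identical proteins carry IL-2 and IL-7 signals, did not pass in either comparison. Stat5a had 87.8, 87.2 and 80.7 CPM with anti-IL-1b and 89.2, 91.7 and 88.6 CPM with MCC950, against 97.5, 92.3 and 89.5 CPM in untreated libraries. Its log2 fold change was -0.13 with anti-IL-1b (95% interval -0.23 to -0.02, adjusted p = 0.0675) and -0.05 with MCC950 (-0.16 to 0.06, adjusted p = 0.500). Stat5b had 281, 267 and 252 CPM with anti-IL-1b and 263, 247 and 247 CPM with MCC950, against 262, 272 and 267 CPM in untreated libraries, with overlap in both comparisons. Its log2 fold change was 0.00 with anti-IL-1b (95% interval -0.08 to 0.07, adjusted p = 0.977) and -0.08 with MCC950 (-0.16 to -0.01, adjusted p = 0.0741). Both STAT5 genes lay close to the threshold: without untreated replicate 3 Stat5a passed as lower with anti-IL-1b (-0.16, adjusted p = 0.0421), and without MCC950 replicate 1 Stat5b passed as lower with MCC950 (-0.11, adjusted p = 0.041), as it did when the 6 libraries of that comparison were fitted alone (-0.08, adjusted p = 0.0495). With library totals Stat5b had 0.13 with anti-IL-1b (adjusted p = 0.00641), the same size as the shift in the median of all genes. With TMM scaling the intervals over all libraries leave room for changes of at most 0.23 on the log2 scale in either gene. Stat5a and Stat5b share reads that the authors' counting splits between them, so their sum is less uncertain: it was 352 ± 17.9 CPM with anti-IL-1b and 342 ± 8.80 CPM with MCC950, against 360.1 ± 4.18 CPM in untreated cells. Stat5b made up 69.1% ± 1.08 of STAT5 TPM with anti-IL-1b, 67.4% ± 0.900 with MCC950 and 66.6% ± 1.43 in untreated cells.

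In the SOCS/CIS family, Socs1 and Socs3 fell in both treated groups and Cish did not. Socs1 encodes an inhibitor that binds JAKs directly and restrains interferon and common gamma chain cytokine signals. Socs1 (chromosome 16, 10782240 to 10785536) had 22.5, 19.8 and 21.9 CPM with anti-IL-1b and 23.8, 20.8 and 19.6 CPM with MCC950, against 35.5, 40.9 and 40.9 CPM in untreated libraries. The treated libraries all lay below the untreated ones, with close values in the treated groups. Such a gap was found for 22.8% of all tested genes with anti-IL-1b and for 23.8% with MCC950. The log2 fold change was -0.87 ± 0.10 with either agent, with adjusted p-values of 1.49e-09 for anti-IL-1b and 9.91e-10 for MCC950, levels 0.547 and 0.545 times those of untreated cells.

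Socs3 encodes the inhibitor that docks on the gp130 receptor chain and limits STAT3 activation. Socs3 (chromosome 11, 117966079 to 117970047) had 181, 164 and 163 CPM with anti-IL-1b and 164, 158 and 154 CPM with MCC950, against 253, 222 and 258 CPM in untreated libraries. The treated groups did not overlap the untreated one, as was the case, as lower, for 22.8% of all tested genes with anti-IL-1b and 23.8% with MCC950. The log2 fold change was -0.53 ± 0.05 with anti-IL-1b (adjusted p = 4.29e-09) and -0.62 ± 0.05 with MCC950 (adjusted p = 1.76e-10). Socs3 remained the most abundant of the 8 SOCS/CIS genes, at 58.5% ± 1.71 of their TPM with anti-IL-1b and 55.5% ± 1.21 with MCC950, against 63.7% ± 3.12 in untreated cells. The TPM of the 8 genes together was 194 ± 8.28 with anti-IL-1b, 182 ± 2.72 with MCC950 and 231 ± 2.57 in untreated cells.

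Cish encodes CIS, a STAT5-induced inhibitor of IL-2 and T cell receptor signals, and it is the member with 2 STAT palindromes at its start in the sequence above. It had 21.7, 20.4 and 21.2 CPM with anti-IL-1b and 23.7, 24.8 and 19.0 CPM with MCC950, against 17.9, 20.9 and 15.7 CPM in untreated libraries. Both treated groups overlapped the untreated one through its second library. The log2 fold change was 0.22 ± 0.12 with anti-IL-1b (adjusted p = 0.164) and 0.31 ± 0.12 with MCC950, where it passed as higher (adjusted p = 0.0357). The MCC950 call was lost without untreated replicate 1 or 3 or MCC950 replicate 1 or 2, with adjusted p-values of 0.0764, 0.210, 0.121 and 0.196, and on log2(TPM + 1) it was lost as well (0.30, adjusted p = 0.155, limma). Without untreated replicate 2 the difference with anti-IL-1b was 0.33, with an adjusted p of 0.049, and with library totals it was 0.34, with an adjusted p of 0.0192. Library totals also shifted the median of all genes to 0.13 in that comparison. An antisense transcript, Gm17041, and a pseudogene, Gm17040, overlap Cish on the other strand over 1459 and 1167 bases, and the sources used here do not say whether counting took account of strand.

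Socs2, which encodes an inhibitor of growth hormone signalling, was hardly detected. It had 3, 0 and 0 counts with anti-IL-1b and 1, 1 and 1 counts with MCC950, against 5, 4 and 6 counts in untreated libraries. Tested with a filter of at least 1 count, it had adjusted p-values of 0.452 with anti-IL-1b and 0.419 with MCC950, so a difference was not detectable at this depth.

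The PIM kinases differed from each other. Pim1 (chromosome 17, 29490753 to 29496112) had the largest change of the 9 genes in both comparisons. It had 131, 135 and 120.2 CPM with anti-IL-1b and 106, 114 and 120.5 CPM with MCC950, against 272, 269.5 and 271 CPM in untreated libraries. All 6 treated libraries lay below the untreated ones, which lay close together. Ranges apart in this direction were found for 22.8% of all tested genes with anti-IL-1b and for 23.8% with MCC950. The log2 fold change was -1.07 ± 0.04 with anti-IL-1b (adjusted p = 2.52e-22) and -1.26 ± 0.04 with MCC950 (adjusted p = 1.34e-24), which are 0.476 and 0.418 times the untreated level. An adjusted p under 0.05 with a change of at least 2-fold was found for 6.12% of all genes with anti-IL-1b and for 5.68% with MCC950. The antisense gene Gm26885 overlaps 1173 bases of Pim1, and the expected counts of Pim1 were not whole numbers, so some of its reads also matched another gene.

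Pim2 (chromosome X, 7878262 to 7883432) moved with MCC950 and did not pass with anti-IL-1b. It had 62.1, 64.0 and 69.5 CPM with anti-IL-1b and 51.8, 53.8 and 53.1 CPM with MCC950, against 63.8, 65.9 and 60.2 CPM in untreated libraries. The MCC950 libraries lay below all others, while the anti-IL-1b and untreated libraries overlapped. With MCC950, 23.8% of all tested genes lay below the untreated range. The log2 fold change was 0.04 ± 0.06 with anti-IL-1b (95% interval -0.09 to 0.17, adjusted p = 0.666) and -0.26 ± 0.06 with MCC950 (adjusted p = 0.00136). The MCC950 call depended on the scale: with library totals it was -0.15 (adjusted p = 0.0666), and on log2(TPM + 1) it was -0.15 (adjusted p = 0.161, limma). The median of all genes with MCC950 was 0.12 and 0.09 on these scales, so relative to that shift Pim2 stayed lower. With library totals Pim2 was higher by 0.17 with anti-IL-1b (adjusted p = 0.0336), against the shift of 0.13 in the median of all genes.

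Pim3, the third PIM kinase and no member of the set, fell as Pim1 did. It averaged 25.4 ± 1.83 CPM with anti-IL-1b and 31.7 ± 2.51 with MCC950, against 66.3 ± 2.79 CPM in untreated cells, log2 fold changes of -1.38 and -1.06 (adjusted p = 8.67e-18 and 1.00e-14). The 3 PIM genes together had 174 ± 7.18 TPM with anti-IL-1b and 148 ± 5.68 with MCC950, against 276 ± 8.52 TPM in untreated cells. Pim1 made up 56.2% ± 1.01 of this with anti-IL-1b and 55.0% ± 1.56 with MCC950, against 66.9% ± 1.54 in untreated cells. The share of Pim2 was 33.7% ± 1.54 with anti-IL-1b and 31.0% ± 1.90 with MCC950, against 18.5% ± 1.17 in untreated cells.

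**Figure D2:**
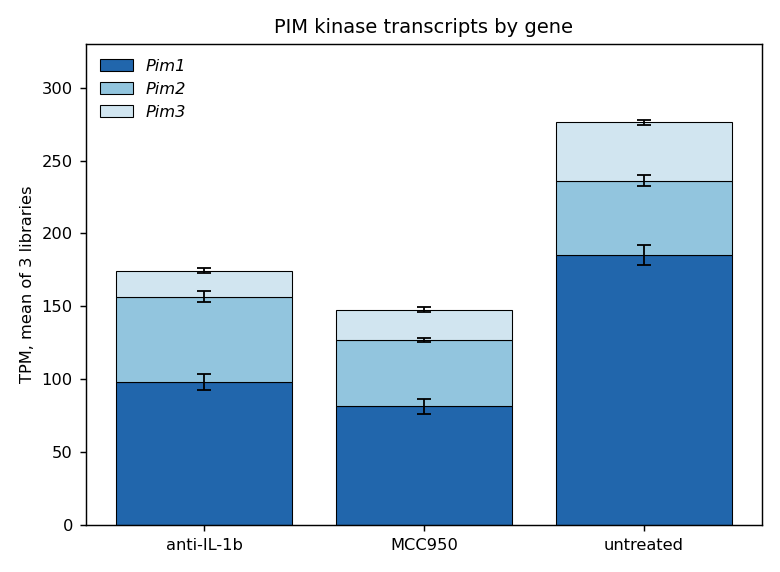
Mean TPM of Pim1, Pim2 and Pim3, stacked, in anti-IL-1b, MCC950 and untreated libraries (n = 3 each); error bars are the SD of each gene's own TPM. Pim1 and Pim3 are smaller in both treated groups, and the Pim2 segment takes a larger share of a lower total.

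Of the 9 tested genes only Pim1 changed by at least 1 on the log2 scale with both agents. The 2 genes nearest to it in the pair of log2 fold changes, among 9051 protein-coding genes whose log2 CPM averaged 2 or more, were Gfi1 and Cenpa. Gfi1, a transcriptional repressor gene, had log2 fold changes of -1.04 with anti-IL-1b and -1.24 with MCC950 and levels of 12.3, 10.7 and 25.3 CPM in anti-IL-1b, MCC950 and untreated cells. Cenpa, a centromere histone gene, had -1.10 and -1.30 and 35.5, 31.0 and 76.3 CPM. Their distances from Pim1 were 0.034 and 0.052 log2 units, over 2 comparisons that share the untreated libraries.

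The direct comparison of anti-IL-1b with MCC950 separated both PIM genes and no STAT or SOCS/CIS gene. Among all genes 13.2% passed in this comparison, 6.13% as higher and 7.11% as lower with anti-IL-1b. Pim2 was higher with anti-IL-1b by 0.30 ± 0.06 on the log2 scale (adjusted p = 0.000998), and its 3 anti-IL-1b libraries all lay above the 3 MCC950 libraries, as was the case for 14.0% of all genes. Pim1 was higher with anti-IL-1b by 0.19 ± 0.05 (adjusted p = 0.00413), but the ranges overlapped. The lowest anti-IL-1b library was at 120.2 CPM and the highest MCC950 library at 120.5 CPM. Without anti-IL-1b replicate 2 the Pim1 difference was 0.15 (adjusted p = 0.0565) and without MCC950 replicate 1 it was 0.14 (adjusted p = 0.070). Pim3 went the other way, lower with anti-IL-1b by -0.32 ± 0.08 (adjusted p = 0.00595), a call lost without MCC950 replicate 3 (-0.26, adjusted p = 0.0702) and in TPM (-0.22, adjusted p = 0.236). For Socs1 the difference between the agents was 0.00 with a 95% interval of -0.20 to 0.21, for Socs3 it was 0.09 (-0.01 to 0.20), and for Cish it was -0.09 (-0.33 to 0.15). The 4 STAT genes had differences between -0.08 and 0.08, with intervals that reached from -0.18 for Stat5a to 0.16 for Stat5b. Without anti-IL-1b replicate 3 the Stat5b difference passed (0.12, adjusted p = 0.0375).

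**Figure D3:**
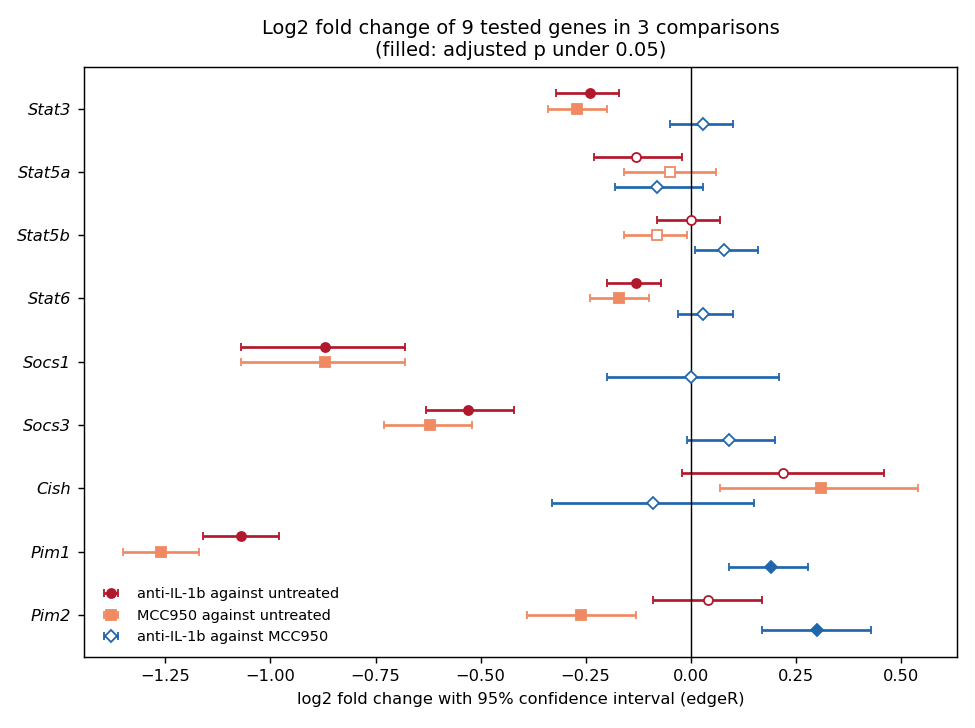
Log2 fold change with 95% confidence interval (edgeR) of the 9 tested genes in 3 comparisons: each agent against untreated (circles and squares) and the agents against each other (diamonds, anti-IL-1b over MCC950). Filled markers have an adjusted p under 0.05: Pim1 lies at -1.07 and -1.26 against untreated, and only Pim1 and Pim2 are filled between the agents.

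The direction of the largest changes did not depend on how the libraries were scaled. Pim1, Socs1 and Socs3 were called lower with both agents under each of 3 other scalings, with DESeq2 and on log2(TPM + 1). The smaller changes of Stat6 and Pim2 and the STAT5 values lie within the range over which the scalings differ, as the plot of the scalings shows.

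**Figure D4:**
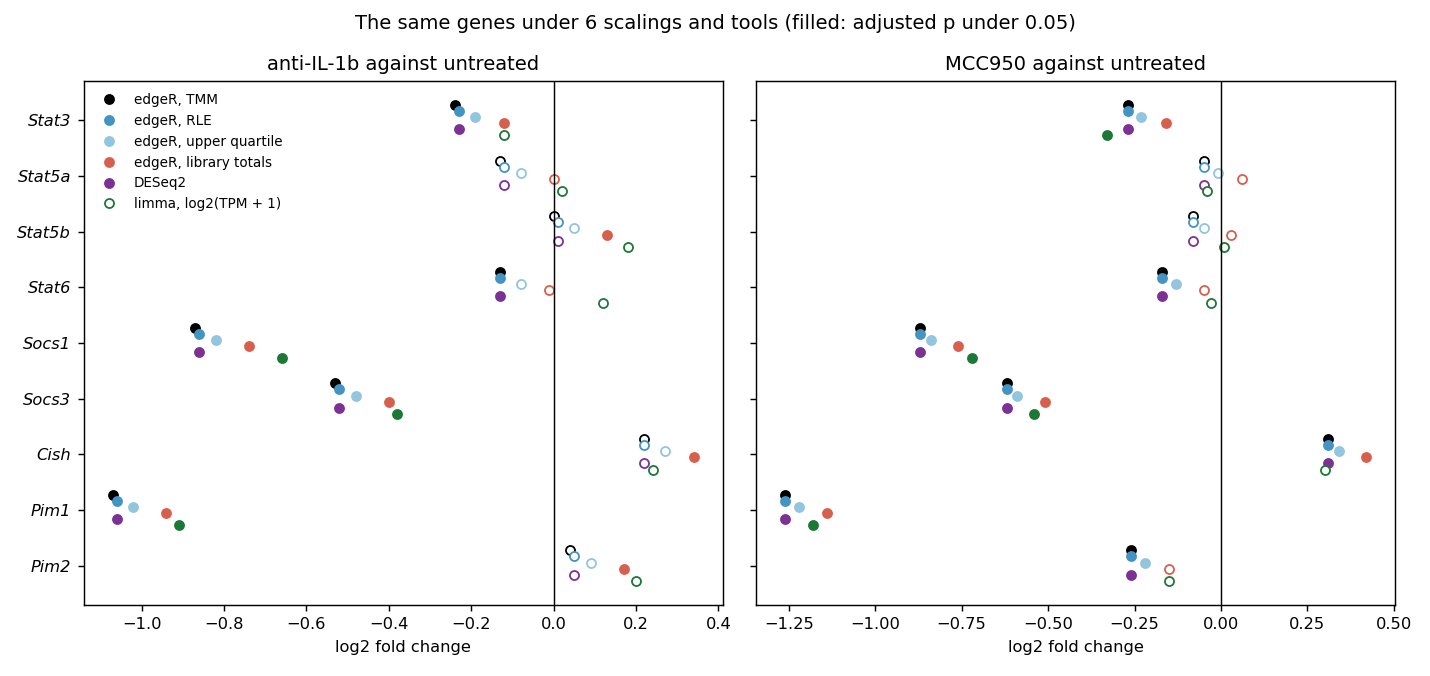
Log2 fold change of the 9 tested genes against untreated, for anti-IL-1b (left) and MCC950 (right), under edgeR with TMM, RLE, upper-quartile and library-total scaling, under DESeq2 and under limma on log2(TPM + 1). Filled points have an adjusted p under 0.05; Pim1, Socs1 and Socs3 stay below 0 and filled throughout, and Stat5a, Stat5b and Stat6 cross or reach 0 in some settings.

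The other genes of the pathway were read against the same backgrounds. Over all genes these were 18.5% lower and 15.4% higher with anti-IL-1b, and 19.1% lower and 17.7% higher with MCC950. Of the 8 other STAT, SOCS and PIM genes, 2 were higher and 3 lower with anti-IL-1b, and 2 were higher and 1 lower with MCC950, with median log2 fold changes of 0.00 and -0.06. Stat2, which carries type I interferon signals, rose with both agents, to 97.5 ± 3.35 CPM with anti-IL-1b and 90.0 ± 5.27 with MCC950, against 74.6 ± 5.12 CPM in untreated cells (log2 fold changes of 0.39 and 0.27, adjusted p = 9.10e-07 and 0.000234). Socs4 rose by 0.30 and 0.24 (adjusted p = 1.22e-05 and 0.000335). Socs6 passed as lower with anti-IL-1b at -0.27 (adjusted p = 0.0345) and had -0.25 with MCC950 (adjusted p = 0.0523), with a difference of -0.03 between the agents (adjusted p = 0.919). Its call was lost without anti-IL-1b replicate 2 or untreated replicate 1 or 3 (adjusted p = 0.222, 0.102 and 0.0972). It was also lost with upper quartiles, library totals, DESeq2, TPM and edgeR without robust estimation, with adjusted p-values between 0.0516 and 0.437.

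The 4 Janus kinases split, with 1 higher and 2 lower in each comparison. Jak2 fell by 0.24 with anti-IL-1b and by 0.21 with MCC950 (adjusted p = 1.66e-05 and 0.000101). Tyk2, the kinase of the interferon and IL-12 receptors, rose by 0.26 and 0.23 (adjusted p = 6.30e-05 and 0.000332). Jak1, the most counted of them at 1122 ± 3.09 CPM with anti-IL-1b, 1093 ± 26.0 with MCC950 and 1215 ± 20.6 in untreated cells, fell by 0.11 and 0.15 (adjusted p = 0.000339 and 4.52e-06), but with library totals and in TPM its value with anti-IL-1b was 0.01 and 0.07. In TPM the calls of Jak2 were lost as well (adjusted p = 0.385 and 0.135, limma), as was that of Jak1 with MCC950 (adjusted p = 0.207). All tested genes had medians of 0.14 with anti-IL-1b and 0.09 with MCC950 on that scale. With library totals the MCC950 calls of Jak2 (-0.10, adjusted p = 0.0615) and Jak1 (-0.04, adjusted p = 0.215) were lost too.

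Of 19 cytokine receptor chains 18 were tested, with 5 higher and 4 lower with anti-IL-1b, 4 higher and 4 lower with MCC950, and medians of 0.02 in both. The interferon gamma receptor chains fell: Ifngr1 to 95.6 ± 3.07 CPM with anti-IL-1b and 94.6 ± 1.53 with MCC950, against 180.1 ± 5.98 CPM in untreated cells (-0.91 and -0.93, adjusted p = 6.23e-20 and 2.84e-20). Ifngr2 had log2 fold changes of -0.71 and -0.68 (adjusted p = 2.66e-11 and 5.34e-11). Il27ra, the IL-27 receptor gene, rose by 0.30 and 0.26 (adjusted p = 8.97e-10 and 2.63e-08). Il4ra, which uses Stat6, fell by 0.28 and 0.12 (adjusted p = 2.51e-09 and 0.00201), and it was lower with anti-IL-1b than with MCC950 by -0.16 (adjusted p = 0.000449). In TPM none of these 3 values of Il4ra passed (adjusted p = 0.133, 0.938 and 0.290, limma), and with library totals that with MCC950 did not (-0.01, adjusted p = 0.826).

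Transcripts of the cytokines themselves were scarce: only 3 of 14 genes could be tested. Osm, an IL-6 family cytokine gene, was at 20.3 ± 0.963 CPM with anti-IL-1b and 23.4 ± 1.45 with MCC950, against 18.3 ± 1.77 CPM in untreated cells, and passed as higher with MCC950 (0.36, adjusted p = 0.00837) but not with anti-IL-1b (0.15, adjusted p = 0.297). The MCC950 call was lost without MCC950 replicate 3 (0.31, adjusted p = 0.0509). Lif, another of that family, was picked out after its values had been seen: it was at 0.301 ± 0.230 CPM with anti-IL-1b and 0.346 ± 0.148 with MCC950, against 5.76 ± 1.28 CPM in untreated cells (adjusted p = 1.04e-09 and 1.37e-09). Lif passed the count filter through the untreated libraries alone, so its call as lower was largely fixed by the filter. The direct test of Osm between the agents gave -0.20 (adjusted p = 0.249).

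Among the 12 genes of PIAS proteins, phosphatases and adaptors, which restrain the pathway at other points, 1 was higher and 4 were lower with anti-IL-1b, and 3 were higher and 4 lower with MCC950. Cblb, a ubiquitin ligase gene that limits T cell activation, fell by 0.30 and 0.39 (adjusted p = 1.60e-07 and 3.55e-10), and its relative Cbl fell by 0.13 and 0.19 (adjusted p = 0.000419 and 6.61e-07), but neither call of Cbl held in TPM (0.10 and -0.06, adjusted p = 0.338 and 0.571, limma), and with library totals its value with anti-IL-1b was 0.00 (adjusted p = 0.973). In TPM Cblb with anti-IL-1b had -0.19 (adjusted p = 0.053, limma). Pias1 fell by 0.16 and 0.32 (adjusted p = 0.0111 and 1.73e-06), and with library totals its value with anti-IL-1b was -0.03 (adjusted p = 0.650). Ptpn6, which encodes the phosphatase SHP-1, rose with MCC950 by 0.17 (adjusted p = 6.78e-05) and had -0.02 with anti-IL-1b (adjusted p = 0.761), a difference of -0.18 between the agents (adjusted p = 9.09e-05, and 0.191 in TPM by limma).

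The 16 other STAT target genes had more lower calls than any other of these lists, with 2 higher and 10 lower with anti-IL-1b, 3 higher and 9 lower with MCC950, and medians of -0.46 and -0.44. Over all genes 18.5% and 19.1% were lower. Junb had the highest untreated level of the list, at 3059.8 ± 49.3 CPM, against 286 ± 23.0 with anti-IL-1b and 228 ± 14.8 with MCC950. Bcl2 went the other way, at 299 ± 8.28 CPM with anti-IL-1b and 266 ± 7.38 with MCC950, against 258 ± 4.21 CPM in untreated cells. Mcl1, a survival gene of the BCL2 family, fell to 499.7 ± 8.81 CPM with anti-IL-1b and 579 ± 7.74 with MCC950, against 1029 ± 4.11 CPM in untreated cells (-1.04 and -0.83, adjusted p = 2.19e-29 and 5.02e-26). Irf1, an interferon response factor gene, fell to 269 ± 7.0 and 301 ± 4.94 CPM, against 473 ± 7.11 CPM in untreated cells (-0.82 and -0.65, adjusted p = 2.96e-23 and 4.41e-20). Gata3, the factor gene of type 2 helper cells, fell by 0.56 and 0.77 (adjusted p = 6.50e-10 and 1.18e-13), and Xbp1, a factor gene of the unfolded protein response, by 0.89 and 0.70 (adjusted p = 3.89e-12 and 9.34e-10). Between the agents, Mcl1 and Irf1 were lower with anti-IL-1b by -0.21 and -0.17 (adjusted p = 2.16e-07 and 0.000283), while Gata3 was higher with anti-IL-1b by 0.21 (adjusted p = 0.0167). The Gata3 difference was lost without anti-IL-1b replicate 2 or MCC950 replicate 2 or 3 (adjusted p = 0.104, 0.0911 and 0.0574), and that of Irf1 in TPM (adjusted p = 0.280, limma).

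**Figure D5:**
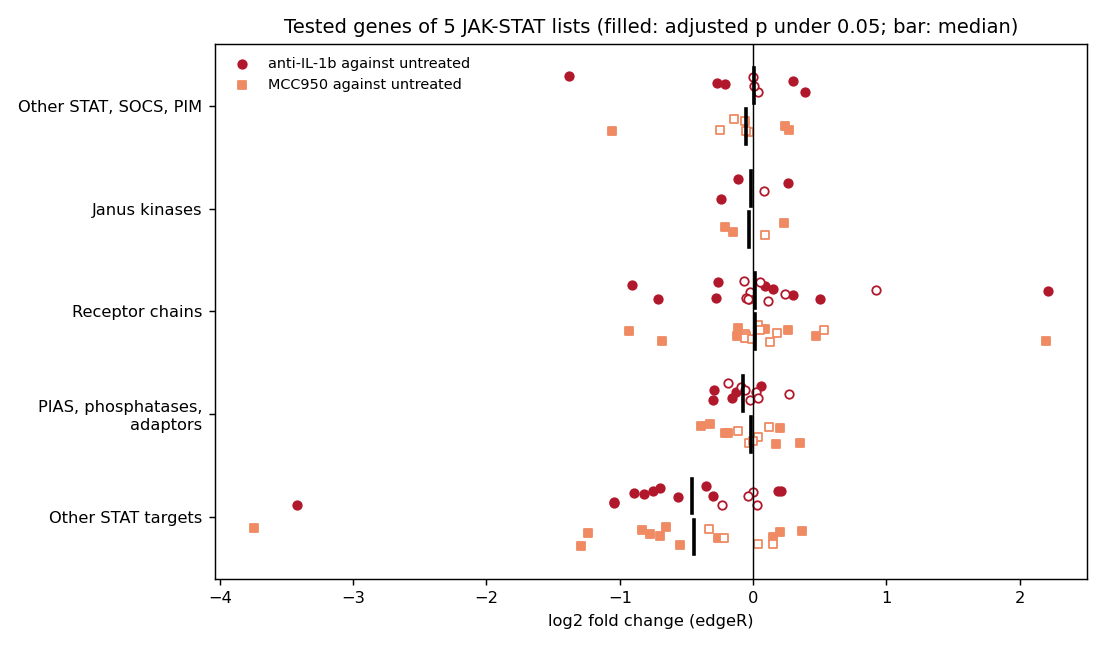
Log2 fold change (edgeR) of the tested genes in 5 lists of the JAK-STAT pathway, 1 point per gene, for anti-IL-1b (circles) and MCC950 (squares) against untreated; black bars are list medians and filled points have an adjusted p under 0.05. The medians of the other STAT target genes lie at -0.46 and -0.44, and those of the first 4 lists lie within 0.10 of 0.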

How the data were processed

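The STAT, SOCS/CIS and PIM genes were chosen by name, and the members, gene lists, tests and alternatives were set down with earlier results of these data known. Libraries were grouped by their labels. Per the submitters' processing notes, STAR and RSEM were used by the authors with mm10 as build and without a stated version. The deposited expected counts are estimated reads per gene without normalization, in which RSEM divides a read that fits several genes among them, per the file headers. TPM values, as deposited, are relative to effective length and add up to one total in every library, per the file headers. The deposited length column is the mean transcript length of a gene weighted by isoform abundance, per the file headers. Libraries came from a directional kit, per the labels' protocols, and the sources used here do not say whether counting took account of strand.

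Symbols were looked up in GENCODE M21 (GRCm38, which is mm10) for 55227 of 55487 gene IDs, 99.5%. After rounding to whole numbers, expected counts entered edgeR 4.0.16 in R 4.3.3 (quasi-likelihood test, robust fit, TMM scaling, filterByExpr), two-sided, with 1 fit of 3 group means over 9 libraries and Benjamini-Hochberg adjustment over 13374 genes. TMM factors were 1.031 to 1.035 with anti-IL-1b, 1.023 to 1.024 with MCC950 and 0.945 to 0.947 in untreated libraries, and the common biological coefficient of variation was 0.0707. Members were all described. Per pathway list, up to 4 genes with the smallest p, past the threshold and averaging 2 or more in log2 CPM, were named. Lif, Junb, Bcl2, Cd69, Ctla4, Cd8a, Prf1, Ccr7, Ebf1, Blk, Gm17040, Gm17041 and Gm26885 were named outside this rule, after their values had been seen. The genes nearest to a member were the 2 with the smallest Euclidean distance over both log2 fold changes, for members with changes of at least 1 in both comparisons. Tested on simulated counts, the fit recovered 71.7% of genes changed 2-fold and 30.6% of those changed 1.2-fold for anti-IL-1b against untreated (13063 genes), 78.0% and 29.6% for MCC950 against untreated (13050 genes) and 78.0% and 38.0% between the agents (13046 genes). Replicates of a group differed by more than counting error (chi-square per degree of freedom 3.73 to 5.26), so none was the same library sequenced again. This check cannot tell separate mice from separate libraries of the same RNA.

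The alternatives changed the scaling (RLE, upper quartiles or library totals alone), the filter (a minimum of 1 count, or a CPM of at least 1 in 3 samples) and the tool (DESeq2 1.42.0, limma-voom and limma-trend (limma 3.58.1) on log2(TPM + 1) and log2(TPM + 0.1), edgeR with replicate blocks and edgeR without robust estimation). Others were fits of the 6 libraries of a comparison, leaving out each library in turn and, added after the data had been seen, the sum of Stat5a and Stat5b.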

Additional observations from a re-analysis of the deposited data

Results flagged for a closer look

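For both PIM genes the effects of the agents, each measured against the same untreated libraries, differed by the direct test of anti-IL-1b against MCC950 in edgeR. Pim2 was higher with anti-IL-1b than with MCC950 by 0.30 on the log2 scale (adjusted p = 0.000998), in 3 of 3 anti-IL-1b libraries against all 3 MCC950 libraries. Ranges were apart in this direction for 14.0% of all tested genes. Pim1 was higher with anti-IL-1b by 0.19 (adjusted p = 0.00413), with overlapping ranges. This call was lost without anti-IL-1b replicate 2 or MCC950 replicate 1 (adjusted p = 0.0565 and 0.070). Pim3, no member of the set, was lower with anti-IL-1b by -0.32. Neutrophil markers, at 28.5 to 29.8 CPM with anti-IL-1b and 13.5 to 16.6 CPM with MCC950, and handling genes, at 5460.0 to 5621 CPM with anti-IL-1b and 6311 to 6454 CPM with MCC950, also differed between these groups, and their part in the PIM values was not tested.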

How the results depend on the processing

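The 5 members called with anti-IL-1b and the 7 called with MCC950 became 3 and 4 on log2(TPM + 1) and on log2(TPM + 0.1). The 2 called between the agents became 1 without anti-IL-1b replicate 2 or MCC950 replicate 1 and 3 without anti-IL-1b replicate 3, a range of 1 to 3 over the libraries left out. With library totals the members' calls were 3 higher and 4 lower with anti-IL-1b, against 0 and 5, and 1 higher and 4 lower with MCC950, against 1 and 6. Counts of all genes called fell to 3263 for MCC950 against untreated on log2(TPM + 1), against 4921, and to 572 and 565 between the agents on the TPM scales, against 1771. Scaling moved the split of calls: with anti-IL-1b 2066 higher and 2479 lower became 2687 and 1941 with upper-quartile scaling, 3929 and 1344 with library totals and 2645 and 865 on log2(TPM + 1). With MCC950 2369 and 2552 became 4009 and 1587 with library totals and 2169 and 1094 on log2(TPM + 1), and between the agents 820 and 951 became 363 and 209 on that scale.

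Signs turned only for values of at most 0.13 in size. With anti-IL-1b, Stat5a had 0.00 with library totals and 0.02 on both TPM scales, and Stat5b had 0.01 with RLE, DESeq2 and the 6 libraries alone, 0.05 with upper quartiles, 0.13 with library totals (adjusted p = 0.00641), 0.00 with the CPM filter, 0.18 on both TPM scales and -0.04 to 0.04 over the libraries left out. Stat6 had 0.12, Cbl 0.10 and Jak1 0.07 on both TPM scales, Jak1 had 0.01 with library totals, and Pim2 had -0.01 without anti-IL-1b replicate 3 and up to 0.08 without another library. With MCC950, Stat5a had 0.06 and Stat5b 0.03 with library totals, and Stat5b 0.01 on both TPM scales. Between the agents, Stat5a had 0.05 and 0.06 on the TPM scales and 0.04 when summed with Stat5b, Socs1 had 0.00 with the filter of 1 count and -0.05 to 0.09 over the libraries left out, and Stat3 had -0.01 without anti-IL-1b replicate 1. On log2(TPM + 1) the median of all tested genes was 0.14 with anti-IL-1b, 0.09 with MCC950 and 0.05 between the agents. The cause of these turns of sign was not tested.

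Samples with the same number did not deviate together (correlations of -0.01 to 0.063 over 9 pairs). With the replicate number as a block, 5, 7 and 2 members were called in the 3 comparisons, and among the called values of the members, the pathway genes, Lif, Gfi1, Cenpa, Cd69, Ctla4, Cd8a, Prf1 and Ccr7 that of Socs6 with anti-IL-1b was lost (adjusted p = 0.0504) and the others kept. Of 1833 log2 fold changes of these genes under alternatives 1715 kept direction and side of the threshold. Genes outside the set entered this count only with values past the threshold in the main fit, and many alternatives differ little from it. The share is therefore partly fixed by the selection. In simulated counts at this depth 29.6% to 38.0% of genes changed 1.2-fold passed. Each simulation changed 100 genes 1.2-fold and 100 genes 2-fold, a smaller share than was called in these data, and drew them from genes of many levels. These rates therefore do not give the power for the members, whose confidence intervals show what a missed threshold leaves room for.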
